A study of Mus musculus with 8 samples.

Results

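The genes described here are 28 members of cholesterol synthesis and sterol regulation, listed by symbol and found among the 57186 genes of the deposited files through their Ensembl identifiers; all 28 were found. They comprise 7 genes of the mevalonate steps, 11 genes of the sterol steps, 6 genes of the SREBP system that senses sterols, and 4 genes of cholesterol export and turnover. The list does not hold every enzyme of the pathway. Some other genes of sterol and lipid metabolism are given later as companion lists, and the remaining enzymes are not analysed here. Total RNA was sequenced from tissue labelled as brain (spelled brian) of mice with an AKAP11 conditional knockout (cKO, 4 libraries) and of control mice (4 libraries). AKAP11 is an anchoring protein for protein kinase A. The sources used here do not give the allele, the recombinase line, the brain region, age or sex, and the labels leave unsaid whether 1 library stands for 1 mouse, so a p-value reflects only how far these libraries scatter, which may be technical. Because the RNA came from bulk tissue, fewer cells of a type and less RNA per cell cannot be told apart.

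Cholesterol is built from acetyl-CoA through mevalonate to farnesyl diphosphate, which is joined to squalene, closed to lanosterol and trimmed to cholesterol. Most of these enzymes are transcribed under SREBP2: when membranes are poor in sterol, SCAP carries SREBP from the endoplasmic reticulum to the Golgi for cleavage, and INSIG proteins hold it back when sterol is plentiful. The brain makes its own cholesterol, because lipoproteins of the blood do not cross the blood-brain barrier, and oligodendrocytes and astrocytes are its main makers. Neurons clear the excess by hydroxylation, and ABC transporters load it onto lipoproteins.

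Promoter sequences are shown for 3 members, because SREBP2 is known to act through elements of this kind in the promoters of synthesis genes and of its own gene. RefSeq (GRCm38.p6) gave 31 windows for 23 of the 28 members, each from 250 bases before to 50 bases after an annotated start; Fdps, Fdft1, Sqle, Stard4 and Abcg1 had none. The sterol regulatory element was searched on both strands in a 10-base form with at most 1 mismatch; the form was chosen after several had been compared, so its count is a description. It was found in the windows of Hmgcs1, Nsdhl and Srebf2, that is in 3 of 23 members, against 2.22% of the 27025 genes with a window. Copies of the element with more mismatches or outside the windows were not searched, so nothing is read from its absence in other members. The runs of 10 capitals mark this element, whose searched letters are, at each position, those that at least 2 of the 3 runs share. The runs of 5 capitals mark CCAAT or its reverse complement ATTGG, the box bound by NF-Y. Hmgcs1 lies at chr13:119690101-119690400, Nsdhl at chrX:72918271-72918570 and Srebf2 at chr15:82147019-82147318, all on the plus strand of GRCm38, which is not the GRCm39 build named for the counts.
Hmgcs1: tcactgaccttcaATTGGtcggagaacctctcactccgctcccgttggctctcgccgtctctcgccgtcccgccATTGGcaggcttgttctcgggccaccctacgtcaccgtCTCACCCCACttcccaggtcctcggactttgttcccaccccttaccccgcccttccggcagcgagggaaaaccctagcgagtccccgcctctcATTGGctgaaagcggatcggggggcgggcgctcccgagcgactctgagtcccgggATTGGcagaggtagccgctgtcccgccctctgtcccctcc
Nsdhl: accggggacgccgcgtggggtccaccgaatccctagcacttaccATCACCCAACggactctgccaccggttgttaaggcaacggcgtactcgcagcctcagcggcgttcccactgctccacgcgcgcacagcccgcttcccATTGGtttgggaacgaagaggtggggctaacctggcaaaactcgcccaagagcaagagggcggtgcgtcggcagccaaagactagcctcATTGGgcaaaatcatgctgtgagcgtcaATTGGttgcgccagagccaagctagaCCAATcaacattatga
Srebf2: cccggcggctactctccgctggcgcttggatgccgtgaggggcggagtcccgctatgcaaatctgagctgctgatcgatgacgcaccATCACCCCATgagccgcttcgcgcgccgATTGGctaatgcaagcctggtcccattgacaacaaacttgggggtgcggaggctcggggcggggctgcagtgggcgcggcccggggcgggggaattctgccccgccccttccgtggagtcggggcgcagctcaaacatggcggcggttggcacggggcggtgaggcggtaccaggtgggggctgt
A CCAAT box was present for 14 of the 15 synthesis genes with a window, against 41.1% of all genes. The GC box GGGCGG was also present for 14 of these 15, against 38.2% of all genes, and the E-box CACGTG for 3 of 15, against 8.09%. Genes with several annotated starts have several windows and so more chances of a match. The genes compared were not matched to the members for expression or base content. The element read by liver X receptors was searched only as an exact direct repeat of AGGTCA with any 4 bases between. This exact form was not found in the 3 efflux and turnover genes with a window, but only 0.0148% of all genes held it. Its absence is thus uninformative, and copies of the element that depart from these letters were not searched. No binding was measured in this study, and a match says only that the letters are there.

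The libraries held 13841218 to 19991942 reads in genes in cKO brain and 15752877 to 19818313 in control brain, and each member had 191 to 5706 reads in every library. Levels are given as CPM, the share of a library that fell on a gene, with library sizes adjusted by TMM factors. The targeted gene checks the labels: Akap11 fell in cKO brain to 228 ± 12.7 CPM, against 323 ± 35.3 CPM in control brain (SD, n = 4 each; log2 fold change -0.50, edgeR adjusted p 0.0103). The adjusted edgeR p was 0.104 without cKO replicate 2 and 0.0616 without control replicate 2, with log2 fold changes of -0.47 and -0.52. All 7 neuron markers, all 6 astrocyte markers and all 6 oligodendrocyte markers passed the low-count filter, while the liver genes Alb and Cyp7a1 had 0 reads. The library of cKO replicate 1 stood apart, where genes took 63.8% of the listed reads while they took 73.7% to 79.7% elsewhere, and with an extreme place on the first principal component. Control replicate 1 was extreme on the second component. Several results are given also without either library.

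No sterol gene passed the test between cKO and control brain. By edgeR's quasi-likelihood test with Benjamini-Hochberg adjustment over the 16766 genes tested, 0 of the 28 members had an adjusted p under 0.05, against 0.0239% of all genes, and the adjusted p values of the members ran from 0.889 to 0.995. DESeq2 and limma voom also called 0 members. An unadjusted p under 0.05 was reached by 1 member, Fdps, in all 3 tools, which is 3.57% of the members, against 4.78% of all genes by edgeR, or 1.91% in this direction. The measured differences were small: the 95% intervals of all 28 members lay within a 1.5-fold change in either direction, as did those of 76.8% of all genes, and those of 18 members lay within a 1.2-fold change, as did 40.4% of all genes. The members are all well above the low-count filter, which holds genes of few reads with wider intervals.

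Per length of exon, the highest levels belonged to the turnover enzyme gene Cyp46a1, the synthesis gene Hmgcs1, the regulator gene Srebf2 and then Insig1. Levels are given per kb of exon for this comparison between genes. Cyp46a1 averaged 65.0 ± 7.63 CPM per kb in cKO brain and 59.7 ± 3.21 CPM per kb in control brain (SD, n = 4 each). Hmgcs1 averaged 39.2 ± 3.29 CPM per kb in cKO brain and 42.7 ± 0.984 CPM per kb in control brain. Srebf2 averaged 40.1 ± 2.37 and 39.7 ± 0.990 CPM per kb in cKO and control brain. This pair of genes lay within the spread of each other in cKO brain, while in control brain Hmgcs1 was higher by more than either SD. Among the enzymes after Hmgcs1, the levels per kb over all 8 libraries ran from 3.73 for Lss to 21.3 for Fdft1. The exon length is the union over annotated transcripts in the GRCm38 annotation, which makes genes with many long transcripts appear low.

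**Figure D1:**
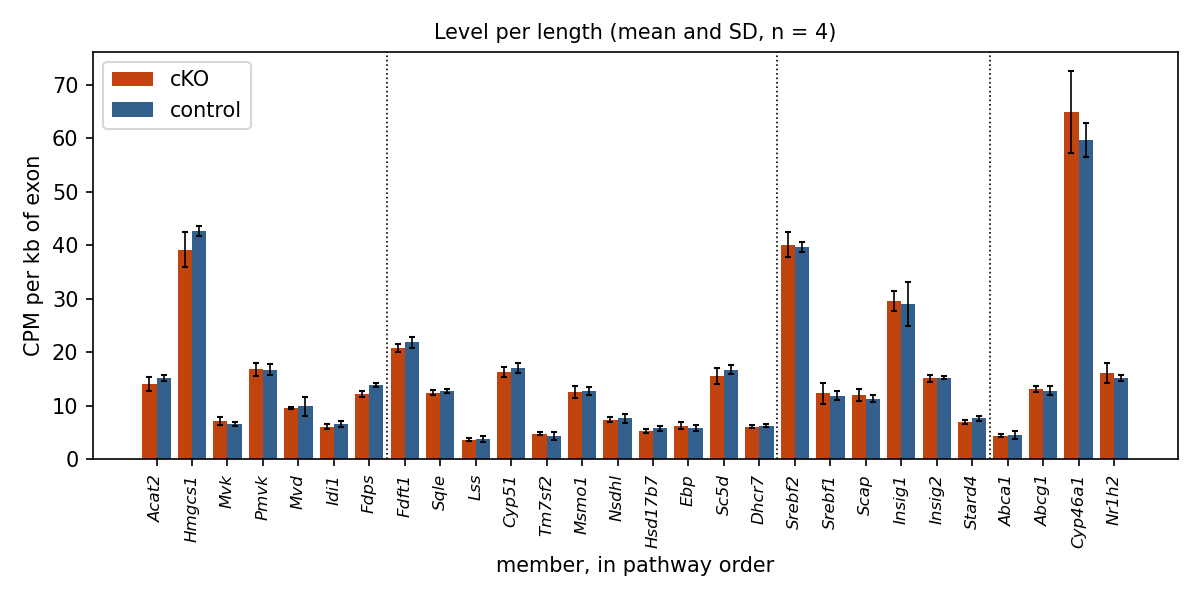
Level of each member per kb of exon (TMM-normalised CPM divided by the union exon length), with cKO left of control, as mean and SD over 4 libraries. Dotted lines part the mevalonate steps, sterol steps, SREBP regulators, and efflux and turnover genes; Cyp46a1 is highest, at 65.0 in cKO and 59.7 in control brain.

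In the mevalonate steps, the gene at the end of the branch had the most separated groups. Fdps, which encodes the synthase of farnesyl diphosphate, stood at 49.3, 50.5, 54.0 and 51.8 CPM in cKO replicates 1 to 4, against 56.95, 57.4, 59.8 and 59.2 CPM in control replicates 1 to 4. Every cKO library lay below every control library. The mean was 51.4 ± 2.01 CPM in cKO and 58.3 ± 1.39 CPM in control brain (SD, n = 4 each), a difference of -11.8%. On the log2 scale this was -0.18 (SE 0.0617), with 95% bounds of -0.31 and -0.05, an edgeR adjusted p of 0.889 and an unadjusted p of 0.00804, so it missed the adjusted threshold. The exact two-sided permutation test gave a p of 0.0286, the smallest that 4 against 4 libraries can give. Of all genes tested, 1.39% had their groups apart in this direction, and Fdps was 1 of 28 members, a count from which nothing is read about the members as a whole.

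Fdps had an unadjusted p under 0.05 in 17 of 17 alternatives, DESeq2 and limma voom among them. Its log2 fold change ran from -0.21 to -0.17, and its unadjusted p from 0.00321 to 0.0251, while the adjusted p was at least 0.679. The alternatives refit the same libraries or a part of them, so they are not independent of the main fit. In the GRCm38 annotation, 26.7% of the exon bases of Fdps are shared with Gm43738, a gene model on the same strand. The deposited files hold no count for Gm43738, and how the counting treated reads in the shared exons is not known.

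Hmgcs1, which encodes the cytosolic synthase that commits carbon to the pathway, stood at 163, 180.0, 199.9 and 177 CPM in cKO replicates 1 to 4, against 191, 198, 194 and 202 CPM in control replicates 1 to 4. Replicates 1, 2 and 4 of cKO lay below all controls and cKO replicate 3 lay among them. The log2 fold change was -0.12 (SE 0.0613, 95% interval -0.25 to 0.01, edgeR adjusted p 0.889). When 1 library was left out, the value ran from -0.18 without cKO replicate 3 (unadjusted edgeR p 0.00995, adjusted p 0.827) to -0.082 without cKO replicate 1, its lowest library (unadjusted edgeR p 0.133, adjusted p 0.989).

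The other mevalonate genes did not separate the groups. Acat2, for the cytosolic thiolase that joins 2 acetyl-CoA, averaged 35.8 ± 3.20 CPM in cKO and 38.6 ± 1.36 CPM in control brain (SD, n = 4 each), and its near-identical paralog Acat3 was low at 2.58 and 2.85 CPM in cKO and control brain, so that reads of this pair may be split uncertainly. Mvk, the mevalonate kinase gene, had a log2 fold change of 0.11 (SE 0.0952), with its highest level, 21.9 CPM, in cKO replicate 1, and 0.045 without that library. Pmvk, for the next kinase, averaged 28.8 and 28.7 CPM in cKO and control brain, and its sign turned in 5 of 17 alternatives. Mvd, for the decarboxylase that makes isopentenyl diphosphate, ran only from 17.4 to 18.02 CPM in cKO brain but from 15.004 to 22.4 CPM in control brain. Idi1, for the isomerase of that product, averaged 21.4 ± 1.72 CPM in cKO and 23.0 ± 1.78 CPM in control brain (SD, n = 4 each). In all, 5 of the 7 genes had a negative log2 fold change, with a median of -0.11, against a median of 0.0034 over all genes tested. The median of the 7 genes was -0.054 without cKO replicate 2 and -0.069 without cKO replicate 4.

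**Figure D2:**
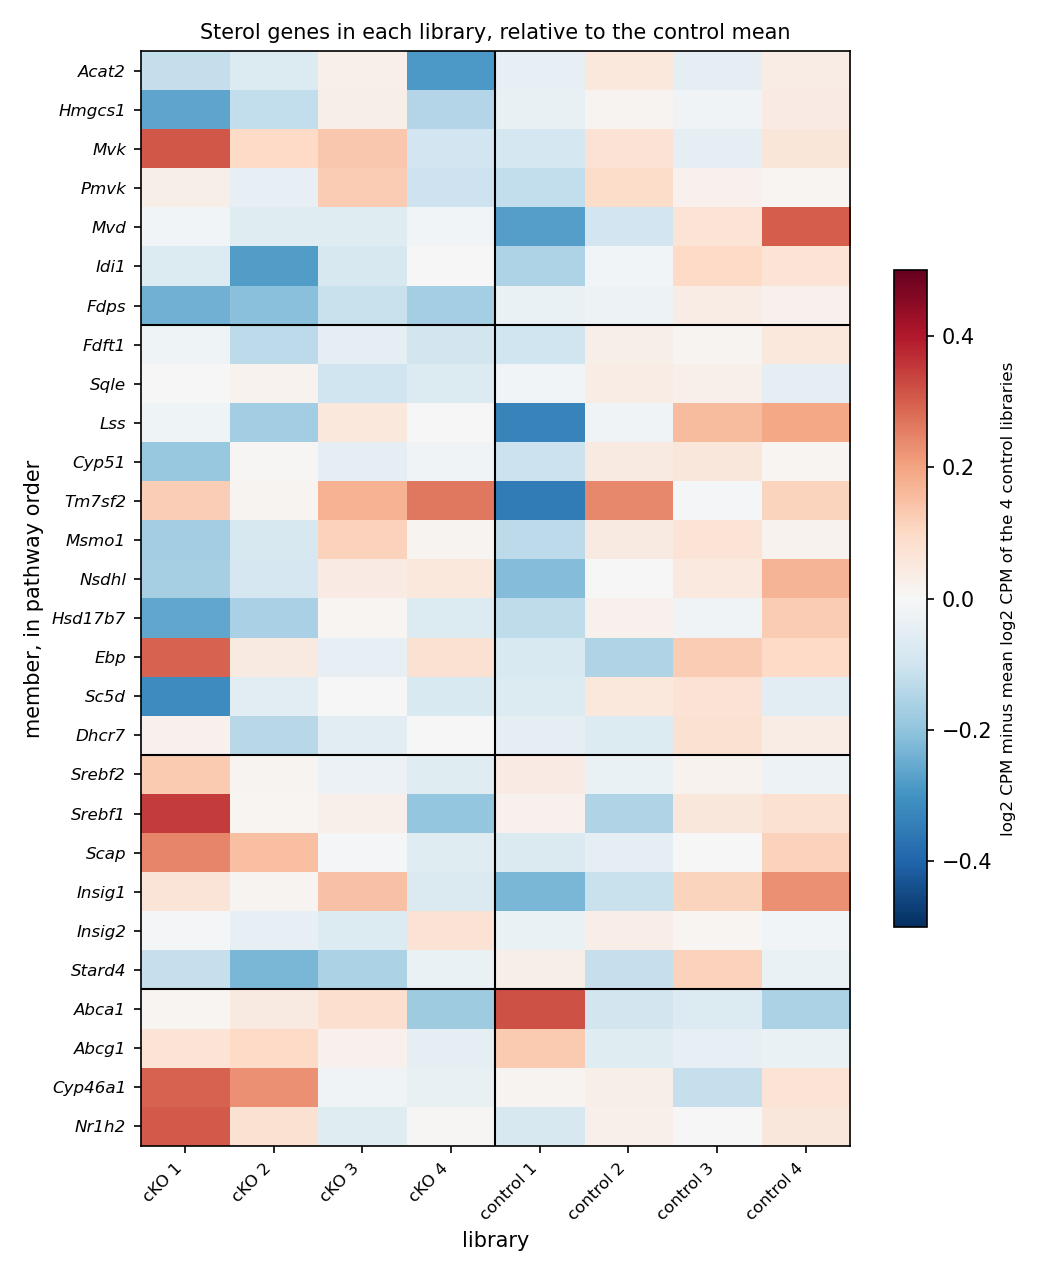
Each square is the log2 CPM of a member in a library minus the mean log2 CPM of the 4 control libraries, with cKO libraries left of control libraries and members in pathway order from top to bottom. Fdps is below the control mean in all 4 cKO libraries, all 18 synthesis genes are below it in control replicate 1, and cKO replicate 1 is the highest library for 7 members and the lowest for 6.

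In the sterol steps, 9 of 11 genes had a negative log2 fold change, with a median of -0.04, and none had an unadjusted p under 0.05. The median was -0.092 without control replicate 1, -0.073 without cKO replicate 3 and -0.027 without cKO replicate 2. The groups overlapped for all 11, while they were apart in either direction for 2.96% of all genes tested. The first of them, Fdft1 for squalene synthase, averaged 87.8 ± 2.94 CPM in cKO and 92.5 ± 4.28 CPM in control brain (SD, n = 4 each). Its exons share 18.3% of their bases with Ctsb on the opposite strand, a gene with 85639 reads over the 8 libraries, and the strand setting of the counting is not stated in those sources. Sqle, for the squalene epoxidase that limits the later pathway, stood at 65.8 to 71.4 CPM in cKO and 68.2 to 72.5 CPM in control brain, with a 95% interval of the log2 fold change from -0.16 to 0.09. Lss, for the cyclase that closes lanosterol, ran from 35.9 to 42.0 CPM in cKO and from 32.2 to 46.3 CPM in control brain. The control libraries of Lss covered the whole cKO range.

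Of the genes that trim lanosterol, all but Ebp and Tm7sf2 had a negative log2 fold change. Cyp51, for the lanosterol demethylase, had a log2 fold change of -0.06 (SE 0.0640), Msmo1, for the methyl oxidase, -0.03 (SE 0.0695), and Nsdhl, the X-linked gene for the decarboxylating dehydrogenase, -0.04 (SE 0.0930). Hsd17b7, for the ketone reductase that follows, had -0.12 (SE 0.0830), and Sc5d, for the desaturase, -0.11 (SE 0.0698). Dhcr7, for the reductase of the final step, averaged 35.5 ± 1.74 CPM in cKO and 36.6 ± 1.74 CPM in control brain (SD, n = 4 each). Ebp, the X-linked isomerase gene, had 0.09 (SE 0.104). Without cKO replicate 1, Cyp51 had -0.026, Sc5d -0.049, Ebp 0.015 and Msmo1 0.013.

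Tm7sf2, a sterol reductase gene, had the widest range of all members relative to its level. It stood at 20.9, 19.4, 21.7 and 23.0 CPM in cKO replicates 1 to 4, against 15.1, 22.7, 19.1 and 20.7 CPM in control replicates 1 to 4. The low value belonged to control replicate 1 and the groups overlapped. The log2 fold change was 0.13 (SE 0.107, 95% interval -0.09 to 0.35, edgeR adjusted p 0.892) with all libraries and 0.03 without control replicate 1. Tm7sf2 shares 12.1% of its exon bases with Vps51 on the same strand.

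**Figure D3:**
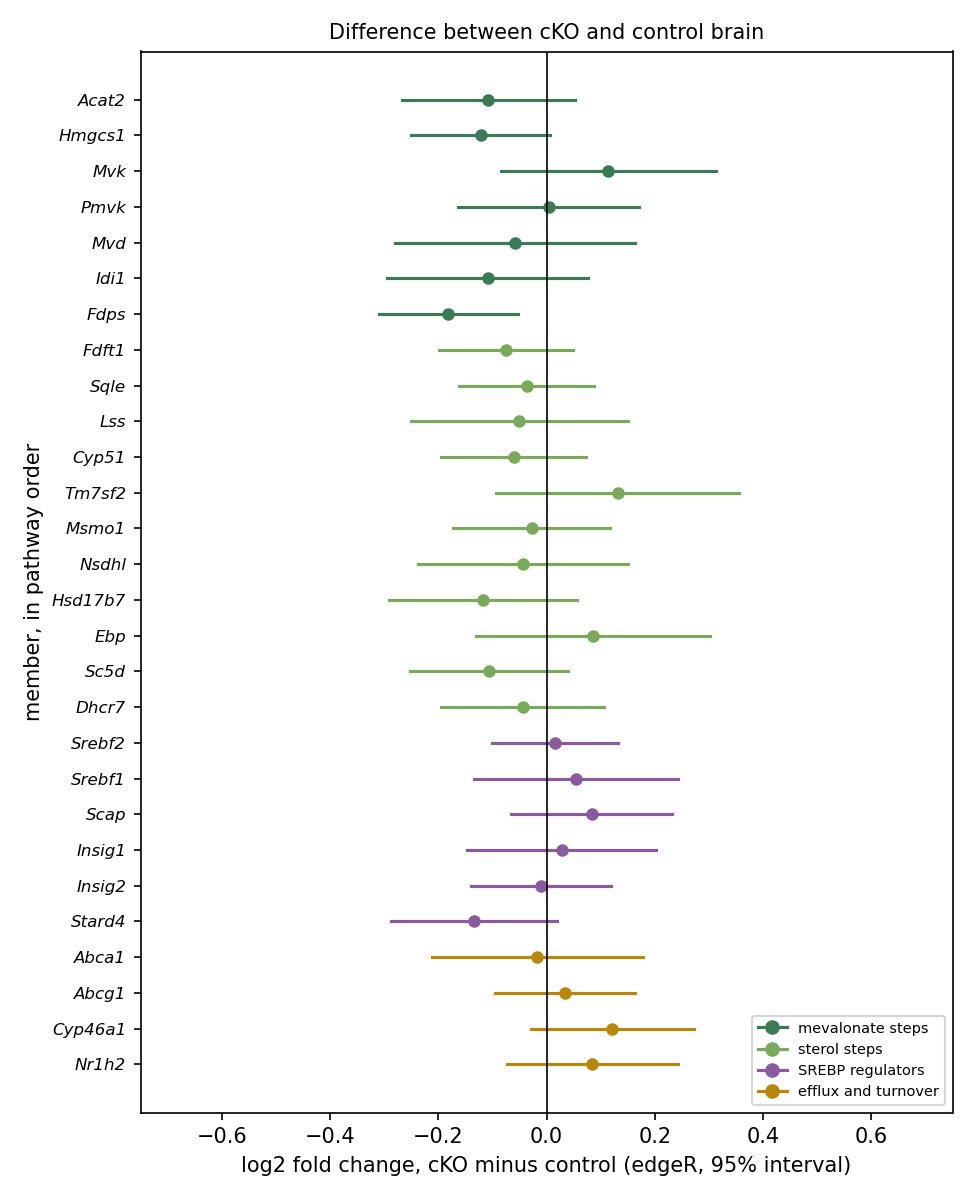
Log2 fold change of each member, cKO minus control, from edgeR with its 95% interval, with members in pathway order from top to bottom and colours for the 4 classes. The interval of Fdps, -0.31 to -0.05, is the only 1 of the 28 that leaves out 0.

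As a class, the 18 synthesis genes lay slightly towards lower values in cKO brain. Of the 18, 14 had a negative log2 fold change (77.8%), against 48.8% of all genes tested, with a median of -0.05 and quartiles of -0.11 and -0.03, against -0.08 and 0.09 over all genes. The summed level was 861, 884, 942 and 895 CPM in cKO replicates 1 to 4, against 881, 956, 962 and 968 CPM in control replicates 1 to 4. The cKO sums averaged 895 ± 34.2 CPM and the control sums 941 ± 40.5 CPM (SD, n = 4 each), and the groups overlapped, since control replicate 1 lay below 3 of the 4 cKO libraries. Enzymes of 1 pathway tend to vary together from library to library, so these counts and medians are a description without a test.

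All 18 synthesis genes were below the control mean in control replicate 1, by 0.13 on average on the log2 scale. The mean log2 level of the class relative to the control mean was -0.04 ± 0.0380 in cKO libraries, and it had an SD of 0.0884 among control libraries (n = 4 each). Without control replicate 1, the median log2 fold change of the class was -0.10 and 15 of 18 genes were lower in cKO brain, and without control replicate 4, 11 of 18 were lower with a median of -0.05. Leaving out both control replicate 1 and cKO replicate 1 gave 16 of 18 lower and a median of -0.08. In each of these fits, 0 members passed the adjusted edgeR test.

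**Figure D4:**
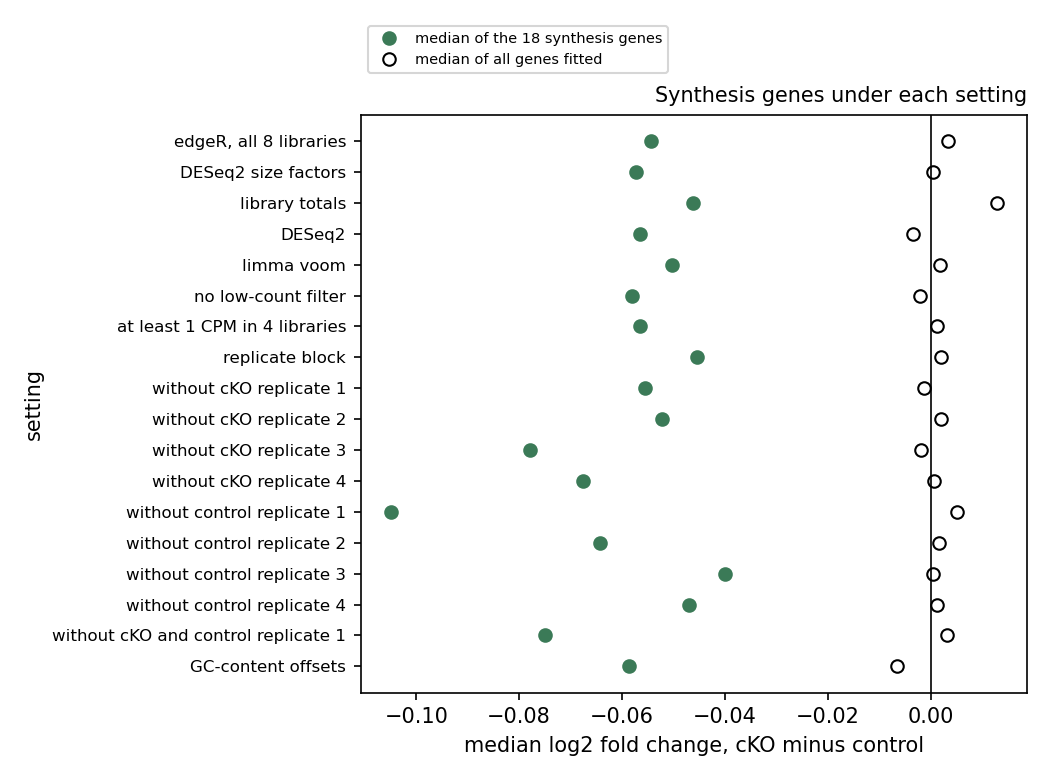
Median log2 fold change, cKO minus control, of the 18 synthesis genes (filled points) and of all genes fitted (open points) under each setting. The class median stays between -0.10 and -0.04 while the median of all genes stays near 0.

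Members varied over the 8 libraries about as much as other genes of their level. The coefficient of variation over all libraries had a median of 8.04% for the 28 members, from 3.06% for Insig2 to 12.5% for Tm7sf2, and a median of 7.36% for the 8786 tested genes within the members' range of mean CPM.

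None of the 6 genes listed with the SREBP system had groups apart. Srebf2, which encodes the SREBP that drives cholesterol genes, stood at 312, 288, 279 and 274 CPM in cKO replicates 1 to 4, against 294, 278, 288 and 280.1 CPM in control replicates 1 to 4. The highest value was that of cKO replicate 1 and the groups overlapped throughout. The log2 fold change was 0.02 (SE 0.0558, 95% interval -0.10 to 0.13, edgeR adjusted p 0.973), and it turned to -0.03 without cKO replicate 1 and to -0.05 with offsets for GC content. Srebf1, whose products drive mainly fatty acid genes, ran from 58.3 to 85.0 CPM in cKO brain, with cKO replicate 1 highest, and from 60.1 to 70.3 CPM in control brain. Its log2 fold change of 0.05 (SE 0.0898) became -0.06 without cKO replicate 1.

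Scap, for the escort of SREBP, averaged 89.2 ± 8.74 CPM in cKO and 84.1 ± 4.91 CPM in control brain (SD, n = 4 each), with a log2 fold change of 0.08 (SE 0.0708), and 0.024 without cKO replicate 1. Insig1, an SREBP target whose product retains SCAP, stood at 93.2, 90.01, 98.8 and 84.9 CPM in cKO replicates 1 to 4, against 76.1, 82.5, 96.4 and 104 CPM in control replicates 1 to 4. Control libraries held both its lowest and its highest value. The 95% interval of its log2 fold change ran from -0.15 to 0.20. Insig2, the less sterol-responsive paralog, was the most even member, at 50.5 to 55.6 CPM in cKO and 51.7 to 54.2 CPM in control brain.

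Stard4 encodes a soluble carrier of cholesterol and is itself an SREBP2 target. Among the 6 genes listed with the SREBP system, it had the largest difference. It stood at 39.4, 36.4, 38.2 and 41.6 CPM in cKO replicates 1 to 4, against 43.5, 39.4, 46.1 and 41.7 CPM in control replicates 1 to 4. The highest cKO library and the lowest control library overlapped. The log2 fold change was -0.13 (SE 0.0733, 95% interval -0.29 to 0.02, edgeR adjusted p 0.889), and the exact two-sided permutation p was 0.0857. Without cKO replicate 4 or without control replicate 2 it reached an unadjusted p under 0.05, but in no fit did it pass the adjusted test.

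Among the efflux and turnover genes, Cyp46a1 was the highest and the most uneven in cKO brain. It encodes the neuronal hydroxylase that turns cholesterol into an oxysterol able to leave the brain. It stood at 240.2, 229.7, 194 and 191 CPM in cKO replicates 1 to 4, against 198, 200.1, 181 and 206 CPM in control replicates 1 to 4. The first pair of cKO libraries lay above all controls and the other pair lay within them. The log2 fold change was 0.12 (SE 0.0722, 95% interval -0.03 to 0.27, edgeR adjusted p 0.889). When 1 library was left out, it ran from 0.057 without cKO replicate 1 (unadjusted edgeR p 0.375) to 0.17 without cKO replicate 4 (unadjusted edgeR p 0.0333), and the unadjusted p was also under 0.05 without cKO replicate 3.

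Neither ABC transporter gene separated the groups. Abca1, for the transporter that lipidates apolipoproteins, stood at 46.5, 47.7, 49.1 and 40.9 CPM in cKO replicates 1 to 4, against 57.6, 43.4, 44.1 and 41.5 CPM in control replicates 1 to 4. Control replicate 1 was the highest library, and the log2 fold change was -0.02 (SE 0.0929) with it and 0.10 without it. Abcg1, for the partner that exports sterol to lipoproteins, averaged 95.8 ± 4.26 CPM in cKO and 93.5 ± 5.90 CPM in control brain (SD, n = 4 each), and control replicate 1, at 102 CPM, was again highest; the log2 fold change was 0.03 (SE 0.0620) with it and 0.08 without it. Nr1h2, for the liver X receptor that switches on both transporters, averaged 54.4 ± 6.24 CPM in cKO and 51.1 ± 2.01 CPM in control brain (SD, n = 4 each), with cKO replicate 1 highest at 63.2 CPM. Its log2 fold change was 0.08 (SE 0.0758), and 0.0033 without that library. The class had a median log2 fold change of 0.06, with 3 of 4 positive.

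**Figure D5:**
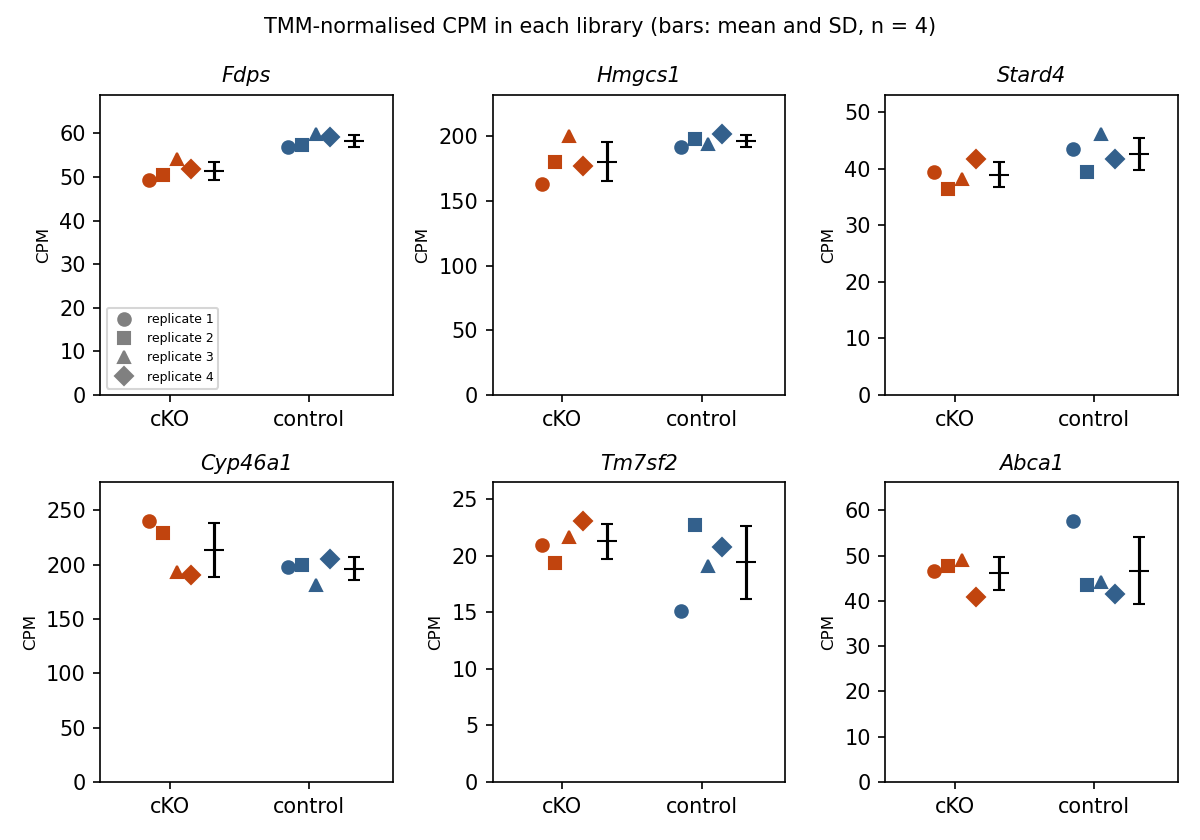
TMM-normalised CPM of 6 members in each library, cKO left of control, with symbols for replicates 1 to 4 and bars for mean and SD (n = 4). The 4 cKO libraries of Fdps, at 49.3 to 54.0 CPM, lie below its 4 control libraries, at 56.95 to 59.8 CPM, while the groups overlap for the other 5 genes, and control replicate 1 stands low for Tm7sf2 and high for Abca1.

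The direction of a member's difference went with the GC content of its transcript. Across the 28 members, Spearman's rho between the log2 fold change and the GC content of the longest transcript was 0.629 with all libraries, 0.295 once offsets for GC content were fitted and 0.384 when cKO replicate 1 was left out; across 16463 tested genes with a known GC content it was 0.308 with all libraries and 0.037 with those offsets, and across 16756 genes it was 0.094 without cKO replicate 1. For single libraries, the members' log2 CPM relative to the control mean was set against GC content. Spearman's rho was 0.774 in cKO replicate 1, 0.567 in cKO replicate 2, 0.009 in cKO replicate 3 and -0.053 in cKO replicate 4. In control libraries it ran from -0.264 to 0.239. These are correlations across genes, which share libraries and are not replicates. The 7 members highest in cKO replicate 1 were Mvk, Ebp, Srebf2, Srebf1, Scap, Cyp46a1 and Nr1h2, with 50.9% to 60.6% GC. The 6 members lowest in it were Hmgcs1, Fdps, Cyp51, Msmo1, Hsd17b7 and Sc5d, with 42.9% to 50.6% GC. Median GC content was 49.2% for the synthesis genes, 53.0% for the regulators and 55.6% for the efflux and turnover genes. With GC-content offsets, 15 of 18 synthesis genes were lower in cKO brain with a median of -0.06, and the log2 fold change of Fdps was -0.19.

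Other genes of sterol and lipid metabolism held no gene past the adjusted test either. Of 56 genes in 4 companion lists, 55 were found and 54 tested, and by edgeR 0 passed the adjusted test, while 2 (3.70%) reached an unadjusted p under 0.05, both higher, as did 2.87% of all genes in that direction. The 8 of them with the lowest p-values in their lists, named here, had adjusted p values of at least 0.998 by DESeq2 and 0.893 by limma voom. The 11 tested genes of other sterol steps and isoprenoid branches had a median log2 fold change of 0.01. Lbr and Ggps1 had the lowest p-values among them. Lbr, a sterol reductase of the nuclear envelope, had 0.12 (SE 0.109), and 0.076 without cKO replicate 1. Ggps1, for the geranylgeranyl diphosphate synthase that draws on farnesyl diphosphate, had -0.08 (SE 0.0830), and -0.0043 without that library. The 13 genes of SREBP cleavage and sterol-dependent degradation had a median of -0.02, with Mbtps2, for the protease of the second SREBP cut, at -0.09 (SE 0.0757) and Faf2 at -0.06 (SE 0.0637).

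Sterol transport and storage held both genes that reached an unadjusted p under 0.05. Lcat, for the enzyme that esterifies cholesterol on lipoproteins, stood at 24.7, 19.7, 20.1 and 17.4 CPM in cKO replicates 1 to 4, against 15.4, 15.9, 17.5 and 17.5 CPM in control replicates 1 to 4. Its log2 fold change was 0.30 (SE 0.102, edgeR adjusted p 0.889), and 0.20 without cKO replicate 1. Gramd1a, for a carrier of sterol from plasma membrane to endoplasmic reticulum, had 0.17 (SE 0.0755), and 0.10 without control replicate 1, where its unadjusted p was 0.153. The 18 tested genes of this list had a median of 0.04. The 12 fatty acid genes under SREBP1 had a median of -0.0047, with the desaturase genes Fads2 at 0.12 (SE 0.0679) and Fads1 at 0.09 (SE 0.0560), or 0.05 and 0.05 without cKO replicate 1.

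Markers of the cells that make most brain cholesterol are given beside these values. The 6 astrocyte markers summed to 3183 to 3805 CPM in cKO and 3593 to 4297 CPM in control brain, although Aqp4, the water channel of astrocyte endfeet, rose in cKO brain to 205 ± 14.9 CPM, against 149 ± 11.8 CPM in control brain (SD, n = 4 each; log2 fold change 0.46, edgeR adjusted p 0.0104). Gfap had 0.33 (SE 0.112, edgeR unadjusted p 0.0126, adjusted p 0.889). Every cKO library of Gfap lay above every control library, while groups were apart in either direction for 2.96% of all genes tested. Slc1a2 went the other way, at -0.20 (SE 0.0750, edgeR unadjusted p 0.0168, adjusted p 0.889). It averaged 2383 ± 239 CPM in cKO and 2732 ± 260 CPM in control brain (SD, n = 4 each), the largest part of the astrocyte sum. Of the 6 astrocyte markers, 4 had a positive and 2 a negative log2 fold change. The 6 oligodendrocyte markers summed to 3080 to 3395 CPM in cKO and 3140 to 3753 CPM in control brain, with a median log2 fold change of 0.07 and 0 of 6 with an unadjusted edgeR p under 0.05. The 7 neuron markers summed to 6353 to 6698 CPM in cKO and 6372 to 7013 CPM in control brain. The 3 precursor markers summed to 112 to 127 CPM in cKO and 120 to 137 CPM in control brain, 4 microglia markers to 183 to 200.1 and 180.3 to 205 CPM, and 4 endothelial markers to 177 to 189 and 183 to 204 CPM, in cKO and control brain. Of the microglia markers, P2ry12 had -0.26 (SE 0.0801, edgeR unadjusted p 0.00424, adjusted p 0.889), while the other 3 had positive values. Every cKO library of P2ry12 lay below every control library, as for 1.39% of all genes tested. Of the endothelial markers, Flt1 had -0.17 (SE 0.0713, edgeR unadjusted p 0.0294, adjusted p 0.889), and 3 of the 4 were negative. The 3 choroid plexus markers summed to 19.3 to 28.4 CPM in cKO and 19.7 to 36.8 CPM in control brain, and the 3 liver markers to at most 0.201 and 0.502 CPM. The sums of all these lists overlapped between the groups, none of the markers outside the liver list was at 0, and their part in the sterol values was not tested.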

How the data were processed

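RNA of 4 cKO and 4 control libraries was compared. The deposited files hold read counts per Ensembl gene, 57186 genes a library, not normalised. Reads were aligned with HISAT2 to GRCm39, per the submitters' processing notes; the sources used here do not give versions, counting tool, annotation or strand setting. The 5 entries that name no gene were left out of totals. Names, exon lengths, the GC content of the longest transcript and exon overlaps came from GENCODE M21 (GRCm38), and 51880 genes matched a symbol; 119 of 120 listed symbols were found. Counts were filtered with filterByExpr, scaled by TMM and tested with edgeR 4.0.16 (quasi-likelihood, robust, group only), with Benjamini-Hochberg adjustment over 16766 genes and a threshold of 0.05. limma 3.58.1, DESeq2 1.42.0 and R 4.3.3 served the alternatives, and Python 3.11.15 the summaries. Exact permutation tests used all 70 assignments of libraries. GC offsets were loess fits (span 0.5) of each library on GC content. The fits were tested on simulated data. All 28 members are named; members with an unadjusted p under 0.05 or groups apart, the 3 highest per kb and the widest-ranging are given by library, and others may be too; each companion list names its 2 lowest p-values. Members and lists were chosen with earlier results of these data known.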

Additional observations from a re-analysis of the deposited data

Results flagged for a closer look

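In 2 of 56 groups of 4 libraries examined (28 members in each genotype), 1 library lay far from the other 3, with a gap over range above Dixon's 95% critical value; chance flags about 1 in 20 groups. Abca1 stood at 57.6 CPM in control replicate 1, against 41.5 to 44.1 CPM in the other control libraries, with a gap over range of 0.840. Abcg1 stood at 102 CPM in the same library, against 89.7 to 91.2 CPM in the other control libraries, with a gap over range of 0.876. Both transporter genes were thus high in the control library in which all 18 synthesis genes lay below the control mean. Without that library the log2 fold change of Abca1 was 0.10, against -0.02 with it.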

How the results depend on the processing

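Over 17 alternatives, 0 members passed the adjusted test, 16 members kept the sign of their log2 fold change and 12 turned at least once, with 27 turns counted over members and alternatives. The largest size of any member's log2 fold change was 0.21, and the median of all genes lay between -0.0067 and 0.013. The count of members with an unadjusted p under 0.05 was 2 without the low-count filter (Hmgcs1 and Fdps), 2 with both replicates 1 left out (Fdps and Fdft1), and 1 to 3 when 1 library was left out. The number of synthesis genes higher in cKO brain was 2 with both replicates 1 left out and 3 to 7 when 1 library was left out. Akap11 ran from -0.55 to -0.42 when 1 library was left out, and lost its call without cKO replicate 2 or control replicate 2. With both replicates 1 left out, the sign turned for Pmvk (-0.041), Ebp (-0.0063), Srebf2 (-0.0087), Srebf1 (-0.045), Insig1 (-0.051), Abca1 (0.10) and Nr1h2 (-0.017). With GC-content offsets it turned for Pmvk (-0.053), Srebf2 (-0.054), Srebf1 (-0.022), Insig2 (0.0045) and Nr1h2 (-0.0027). When 1 library was left out, Pmvk ran from -0.045 to 0.036, Msmo1 from -0.083 to 0.013, Srebf2 from -0.028 to 0.036, Srebf1 from -0.056 to 0.13, Insig1 from -0.041 to 0.10, Insig2 from -0.042 to 0.0048, Abca1 from -0.075 to 0.10, Mvd from -0.14 to 0.051, Lss from -0.15 to 0.012 and Nsdhl from -0.11 to 0.012. The cause of these turns was not tested. Libraries of the same number did not deviate together (correlations of 0.0052 to 0.0487), and a replicate block gave 0 members past the adjusted test, 1 with an unadjusted p under 0.05, 4 synthesis genes higher with a median of -0.05, and -0.50 for Akap11 (edgeR adjusted p 0.0322). With 4 libraries a group, the median SE of a member's log2 fold change was 0.0746.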
